A study of Sus scrofa with 63 samples.

Results

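The expression of 10 genes of blood and lymphatic vessels, VEGFA, KDR, FLT1, FLT4, TEK, ANGPT1, ANGPT2, PECAM1, CDH5 and LYVE1, was followed in the jejunum of pig fetuses late in gestation. They were taken by name: every probe of the array whose gene name equals one of these symbols was a member, which gave 25 of the 60305 probes, with 1 to 4 probes per gene. For 9 of the 10 genes at least 1 probe was bright enough to be tested, and 22 of the 25 probes were. FLT4 had a single probe, which was well above background on 3 of 63 arrays and was not tested.

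Jejunum RNA of 63 male fetuses was hybridised to one-colour Agilent porcine arrays, with 1 fetus per array. The fetuses were purebred Large White (LW), purebred Meishan (MS), LWMS (LW sire and MS sow) or MSLW (MS sire and LW sow), and none carried a transgene or received a treatment. At day 90 of gestation there were 9 LW, 6 MS, 9 LWMS and 8 MSLW fetuses, and at day 110 there were 9 LW, 7 MS, 9 LWMS and 6 MSLW fetuses. Tissue came from a middle segment of jejunum, so that epithelium, vessels, muscle and nerves were measured together, and a fall in a gene cannot be told apart from fewer cells that use it. Levels are log2 signals, with 0 at the 75th percentile of all probes on that array. They can be compared between fetuses for 1 probe but not between probes. Fetuses of a litter share a sow, and the sow was not a term in the fits.

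Vascular endothelial growth factor A (VEGFA) is released by many cell types and acts on endothelium through KDR (VEGFR2), the main signalling receptor, and FLT1 (VEGFR1), which binds it tightly and limits its action. FLT4 (VEGFR3) serves growth of lymphatic vessels. ANGPT1, made mostly by cells around the vessel, activates the endothelial receptor TEK (TIE2) and stabilises vessels, and ANGPT2, made by endothelium, often opposes it. PECAM1 and CDH5 (VE-cadherin) hold endothelial cells together at their junctions, and LYVE1, a hyaluronan receptor, marks lymphatic endothelium and also some tissue macrophages. In the intestine a capillary network and a central lymphatic vessel run in each villus and carry off absorbed nutrients.

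The results for VEGFA and KDR depend on which probe is read, so their probes are shown first. Each probe is an oligonucleotide of 60 bases printed here 5′ to 3′ from the array design. For VEGFA, the brightest probe and the dimmest one are the reverse complement of each other over 38 bases, which are in capitals:
A_72_P414353: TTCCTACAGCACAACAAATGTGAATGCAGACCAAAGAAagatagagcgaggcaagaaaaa
O11835: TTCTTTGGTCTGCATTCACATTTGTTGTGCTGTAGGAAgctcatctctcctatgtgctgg
The 2 probes therefore read opposite strands. A_72_P414353 was well above background on 63 of 63 arrays and O11835 on 23 of 63, so O11835 was not tested. The other 2 VEGFA probes share no such stretch with them, and their first 30 bases are:
A_72_P441494: tttgtacaagatccgcagacgtgtaaatgt
A_72_P443769: atgttattggtgtcttcactggatgtattt
The design file lists their starts at base 366 for A_72_P414353 and 462 for A_72_P441494 of 1 RefSeq transcript and at base 1648 of an Ensembl transcript for A_72_P443769. For KDR, the first 30 bases of the 3 probes are shown because only the brightest of them, A_72_P380298, differed by breed:
A_72_P380298: tctacatcatagtaaaagcggatttggttt
A_72_P442740: ttcaagtgttgttctttccaccgccaggaa
O306: attatgtacatagttgtggttgtagggtac
The first starts at base 5127 and the second at base 4131 of their listed transcripts, and no start is listed for O306. The array files give no genome position for these probes. In the rest of the text a gene is represented by its brightest tested probe unless a probe is named.

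The labelled tissue was checked against markers of intestine and vessels. EPCAM, CDH1 and FABP2 were measured for the epithelium, at a mean level over these 3 probes of 2.89 to 5.37 in every fetus, and VIL1, ALPI and KRT20 had no probe of that name. Of the 9 markers of endothelium 7 were tested, and their mean level ran from 0.14 to 1.74. Per array, 51.2 to 87.6% of probes were well above background, with a median of 67.6% at day 90 and 66.3% at day 110. The arrays lay on 8 slides of 7 or 8 arrays, each with 5 to 8 of the groups. Differences within a slide, given below, are plain differences of means with no adjustment for the other factors. Within a day and genotype, fetuses of a group often spread over more than 1 log2 unit for a gene, as the plot of the 9 genes by group shows. When the 8 groups of a gene were ordered by their means, no 2 neighbours in the order were further apart than the larger of their SDs, for any of the 9 genes.

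**Figure D1:**
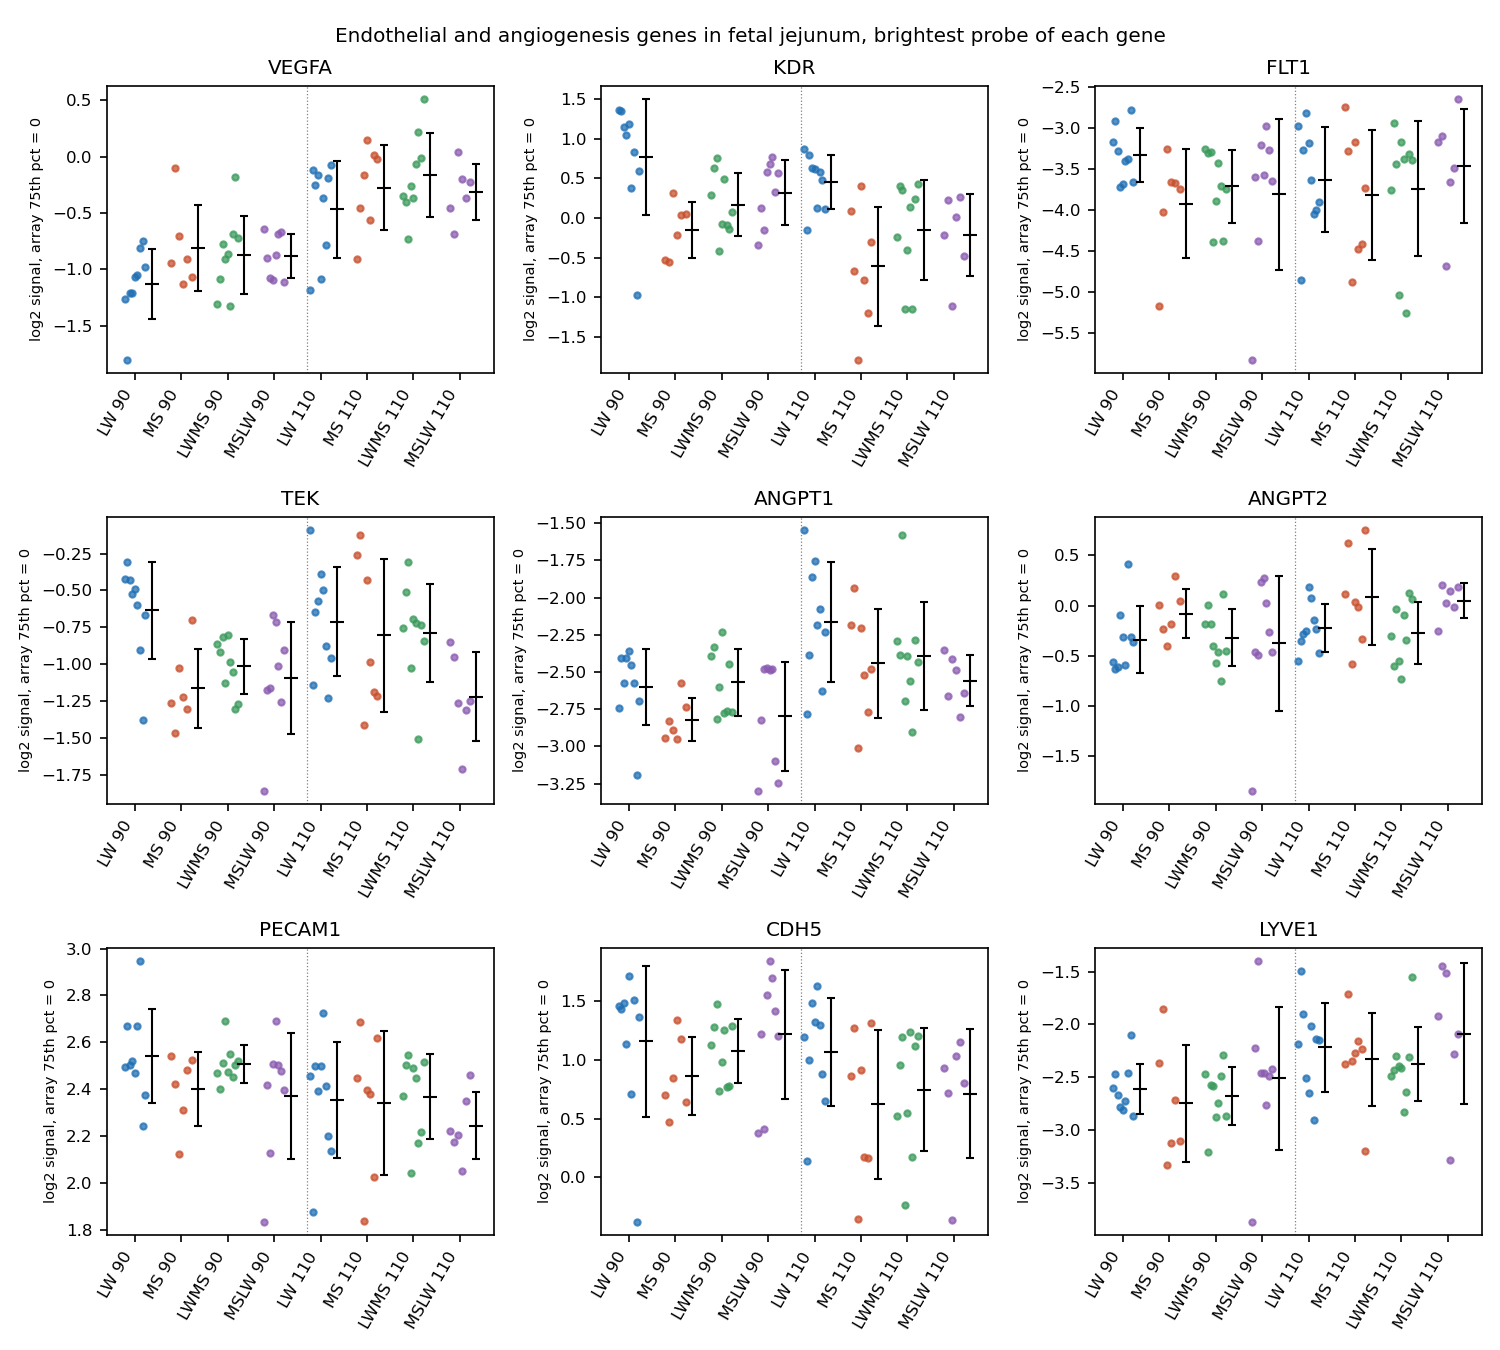
Level of each gene (log2 signal, 0 at the array's 75th percentile, brightest probe) in each of the 63 fetuses, by genotype and day of gestation; dots are fetuses, and bars are the group mean ± SD of 6 to 9 fetuses. VEGFA sits higher in all 4 genotypes at day 110 than at day 90, and KDR is highest in LW and lowest in MS at both days.

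The first comparison asked how the vessel genes change between day 90 and day 110. VEGFA rose by 0.62 ± 0.09 (SE) on the log2 scale, a 1.53-fold change, and ANGPT1 and LYVE1 rose by 0.31 ± 0.08 and 0.38 ± 0.12 (limma over the 8 group means, averaged over the 4 genotypes, adjusted p = 7.3e-08, 0.0016 and 0.0063). No gene of the 9 fell past the threshold, an adjusted p under 0.01. These 3 called genes of 9 stand against 28.5% of all 40515 probes called for age, 12.8% higher and 15.7% lower at day 110. Among the brightest probes of the 9120 named genes tested the shares were 30.7% called and 13.8% higher, so a share of 3 in 9 is near the background. The median age difference was 0.10 over the 9 genes and -0.02 over all probes.

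VEGFA, the ligand, was measured at -1.81 at the lowest, -0.93 at the median and -0.10 at the highest among the 32 fetuses at day 90. Among the 31 fetuses at day 110 it was -1.18, -0.26 and 0.51. The days overlapped, but 29 of the 31 fetuses at day 110 lay above the median of day 90. Day 110 was higher within each of the 8 slides, by 0.32 to 0.93.

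In LW the median of VEGFA went from -1.07 to -0.26, in MS from -0.93 to -0.16, in LWMS from -0.86 to -0.26 and in MSLW from -0.89 to -0.30. The fitted differences were 0.66 ± 0.16 in LW and 0.71 ± 0.16 in LWMS (adjusted p = 0.0041 and 0.0010, limma), both called. They were 0.53 ± 0.19 in MS and 0.57 ± 0.19 in MSLW (adjusted p = 0.080 and 0.036), short of the threshold. VEGFA was the 1 gene of the 9 called in LW and in LWMS, where 5.32% and 11.1% of all probes were called. In MS and MSLW limma called 0 of the 9 genes, where 3.25% and 5.7% of all probes were called, although 2 of the 9 had an unadjusted p under 0.05 in each. The genotype by age interaction, which tests whether these changes differ between genotypes, called 0 of the 9 genes and 0.0222% of all probes, with 0 of the 9 under an unadjusted p of 0.05. The call in LW was lost without any 1 of 5 LW fetuses, numbers 449, 469, 557, 670 and 854, when the difference was 0.57 to 0.62 (adjusted p = 0.010 to 0.016).

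The 3 tested probes of VEGFA did not give 1 answer. A_72_P441494 rose by 0.44 ± 0.09 (adjusted p = 3.7e-05, limma) and A_72_P443769 differed by 0.01 ± 0.12 (adjusted p = 0.96). The difference between A_72_P414353 and A_72_P443769 in the same fetus averaged 0.73 at day 90 and 1.34 at day 110, a change of 0.61 (permutation test within genotypes, two-sided, 7 probe comparisons in all, adjusted p = 0.00095). Between A_72_P441494 and A_72_P443769 it went from -0.13 to 0.30, a change of 0.43 (permutation, adjusted p = 0.00056). The first 2 probes differed from each other by 0.17 more at day 110 (permutation, adjusted p = 0.13). Among fetuses of a group, A_72_P414353 and A_72_P443769 were inversely related, with r = -0.35 over 63 fetuses, whereas A_72_P441494 and A_72_P443769 had r = 0.59. The 2 probes that rose, A_72_P414353 and A_72_P441494, were only weakly related, with r = 0.11. With the mean over the 3 probes, the rise of VEGFA was 0.36 (adjusted p = 1.3e-05), and the call in LWMS was lost.

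**Figure D2:**
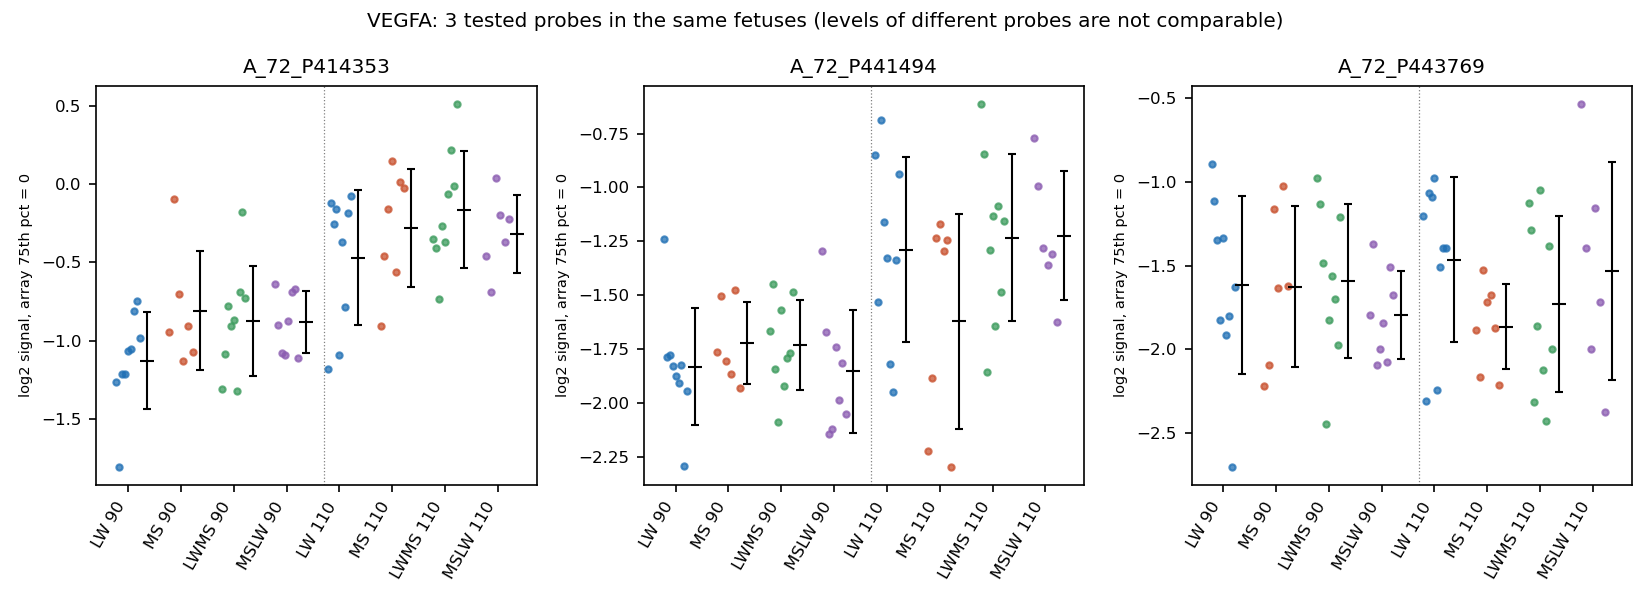
Level of the 3 tested VEGFA probes (log2 signal, 0 at the array's 75th percentile) in the same 63 fetuses, by genotype and day; dots are fetuses and bars are the group mean ± SD. The 2 probes on the left are higher at day 110, by 0.62 and 0.44 averaged over genotypes, and A_72_P443769 on the right is not, with 0.01.

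ANGPT1, the ligand that activates TEK, has 1 probe on the array. Its lowest, median and highest levels were -3.30, -2.65 and -2.23 at day 90 and -3.01, -2.40 and -1.55 at day 110. Although the days overlapped, 24 of 31 fetuses at day 110 were above the median of day 90, and the difference was positive in all 4 genotypes (0.18 to 0.44, none called by itself) and on all 8 slides (0.13 to 0.75). With quantile normalization and with median centring the difference was 0.34 and 0.35 but its adjusted p was 0.025 and 0.012.

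LYVE1 was measured at -3.87, -2.59 and -1.40 (lowest, median and highest) at day 90 and at -3.28, -2.28 and -1.44 at day 110. Of the fetuses at day 110, 25 of 31 lay above the median of day 90. Its difference was positive in all 4 genotypes, at 0.30 to 0.42, and on all 8 slides, at 0.01 to 0.67. The call was lost without 6 single fetuses in turn, MS fetuses 826, 827 and 952 at day 90 and MS fetus 627 and MSLW fetuses 476 and 851 at day 110 (adjusted p of 0.011 to 0.013). The other tested markers of lymphatic endothelium did not pass the threshold. PROX1, a transcription factor of lymphatic identity, differed by -0.19 (adjusted p = 0.14) and PDPN (podoplanin) by -0.08 (adjusted p = 0.53). Of 6 macrophage markers 3 rose, CD163 by 0.94, MRC1 by 0.37 and CD14 by 0.37, and AIF1 fell by 0.33. The mean level of these 6 markers ran from -2.70 to -0.69 at day 90 and from -2.43 to -0.78 at day 110. Their part in the rise of LYVE1 was not tested. A further LYVE1 probe, O12508, was well above background on 32 of 63 arrays and was not tested.

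The receptors and junction genes did not pass the threshold for age. KDR was lower at day 110 in all 4 genotypes, by 0.32 to 0.54, and on all 8 slides, and differed by -0.41 ± 0.14 when averaged (adjusted p = 0.013, limma). Without LW fetus 484, whose KDR level was the lowest of its group, it differed by -0.46 (adjusted p = 0.0019) and was called, and it was also called without MSLW fetus 450 at day 90 or without MS fetus 623 or 871 at day 110. CDH5 differed by -0.29 ± 0.13 and PECAM1 by -0.13 ± 0.06 (both adjusted p = 0.066), each with the same sign in all 4 genotypes. TEK differed by 0.10 ± 0.09 (adjusted p = 0.42), ANGPT2 by 0.19 ± 0.10 (adjusted p = 0.12) and FLT1 by 0.03 ± 0.17 (adjusted p = 0.90). FLT1 was dim, at -5.82 to -2.65, and was well above background on 58 of 63 arrays.

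**Figure D3:**
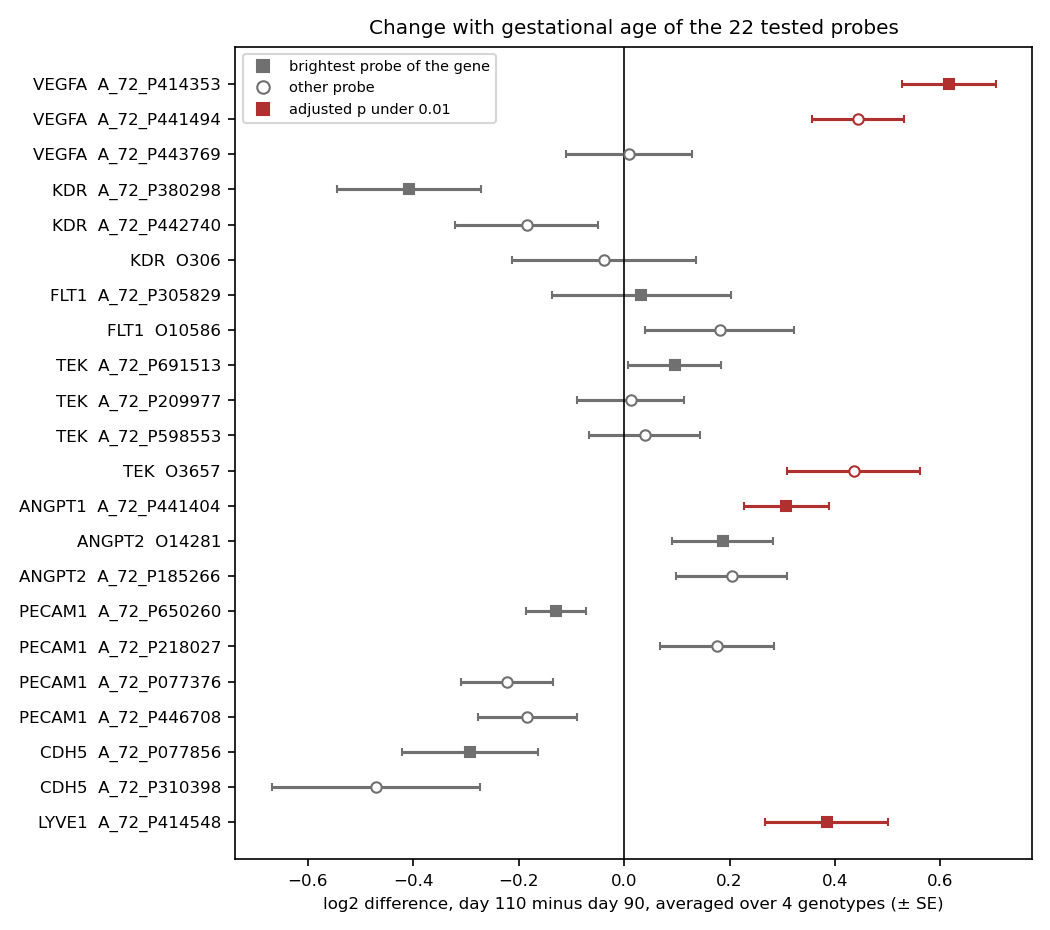
Log2 difference between day 110 and day 90, averaged over the 4 genotypes, for the 22 tested probes; squares are the brightest probe of each gene, circles its other probes, bars the SE, and red marks an adjusted p under 0.01. Of the 22 probes 5 are called, all to the right of 0: 2 of VEGFA and 1 each of TEK, ANGPT1 and LYVE1. Of all 40515 probes tested 28.5% were called for age, 12.8% higher and 15.7% lower.

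Probes of 1 gene had age differences of the same sign for all genes with more than 1 tested probe except PECAM1, where they ran from -0.22 to 0.18. TEK had 1 called probe among its 4, the dim O3657 at 0.44 ± 0.13 (adjusted p = 0.0044), which was well above background on 48 of 63 arrays and was nearly unrelated to the brightest TEK probe among fetuses of a group (r = 0.04 over 63 fetuses). The remaining 3 TEK probes differed by 0.01 to 0.10, none called. Probes of ANGPT2 agreed closely, with differences of 0.19 and 0.20 and r = 0.90.

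The other genes of these pathways were described from lists, as counts beside the background shares given above. In the list of VEGF ligands, receptors and co-receptors 7 genes were tested, and besides VEGFA the ligands PGF and VEGFB were called, lower at day 110 by 0.52 and 0.46 (adjusted p = 0.00018 and 2.4e-08). PGF (placental growth factor) and VEGFB both bind FLT1. Of 5 genes of the angiopoietin and TIE system, ANGPT1 and PTPRB rose, the latter, a phosphatase that acts on TEK, by 0.35 (adjusted p = 0.0014). Of 17 genes of endothelial identity and junction 0 rose and 2 fell, the tight junction gene CLDN5 by 0.52 (adjusted p = 3.5e-05) and EGFL7, which endothelial cells secrete, by 0.43 (adjusted p = 2.5e-09), and the median over the list was -0.21. VWF, which endothelium stores and secretes, differed by 0.47 (adjusted p = 0.031).

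Of 9 Notch, arterial and venous genes 2 fell and 0 rose, NOTCH1 by 0.82 (adjusted p = 0.00011) and its target HEY1 by 0.31 (adjusted p = 0.0014). Of 8 pericyte and mural genes 2 fell, ACTA2, the actin of smooth muscle, by 0.55 (adjusted p = 1.7e-08) and KCNJ8, a potassium channel of pericytes, by 0.37 (adjusted p = 0.00070), while ANGPT1 rose. Among 10 genes of vascular matrix and angiogenesis inhibitors 2 fell: SERPINF1, which encodes the inhibitor PEDF, by 1.23 (adjusted p = 2.2e-08), and COL18A1, the source of endostatin, by 0.62 (adjusted p = 3.1e-09). Of 7 lymphatic genes 1, LYVE1, was called.

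VEGFA is a known target of the hypoxia response, and other genes of that response made up a list. Of 12 tested, 6 rose and 1, NDRG1, fell, with a median of 0.36, and VEGFA was not in this list. CA9, a carbonic anhydrase, rose by 1.89 (adjusted p = 8.7e-05), EGLN3, an oxygen-sensing hydroxylase, by 1.36 (adjusted p = 3.7e-17), the glucose transporter SLC2A1 by 0.92 (adjusted p = 6.9e-08) and LDHA, of glycolysis, by 0.84 (adjusted p = 2.1e-08). The mean level over the 12 genes was 0.41 to 0.80 at day 90 and 0.77 to 1.68 at day 110. The part of this response in the rise of VEGFA was not tested. Of 10 cell cycle genes 7 fell and 0 rose, among them MCM2 by 0.77 (adjusted p = 1.1e-09), CCNB1 by 0.54, CCNB2 by 0.45 and PCNA by 0.41.

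Markers of other cell types also differed between the days. Of 6 fibroblast markers 4 were lower at day 110 and 0 higher, with a median difference of -0.43, and their mean level ran from 2.44 to 3.68 at day 90 and from 1.91 to 4.00 at day 110. Of 3 tested epithelial markers EPCAM and CDH1 were higher, both by 0.44, with mean levels over the list of 3.82 to 4.86 and 2.89 to 5.37. HBB, a globin of red blood cells, was lower by 1.68 (adjusted p = 2.0e-06). Of 5 smooth muscle markers 1 was lower and of 4 pericyte markers 0 were called. The part of these cell types in the age differences of the vessel genes was not tested.

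The second comparison asked whether the vessel genes differ between the breeds. KDR did, in its brightest probe. It was highest in LW and lowest in MS at both days, with both crosses between them, and it was 2.08-fold lower in MS than in LW at day 110. Of the 9 genes KDR was the 1 called for genotype averaged over both days (adjusted p = 0.00093, limma), where 9.57% of all probes were called.

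At day 90 the KDR level was -0.97 at the lowest, 1.05 at the median and 1.36 at the highest in LW and -0.56, -0.09 and 0.32 in MS. LWMS had -0.42, 0.07 and 0.75, and MSLW -0.34, 0.45 and 0.77. The LW and MS ranges overlapped only through LW fetus 484, since the other 8 LW fetuses lay between 0.38 and 1.36, above every MS fetus. At day 110 the levels were -0.15, 0.58 and 0.87 in LW, -1.79, -0.67 and 0.40 in MS, -1.15, 0.13 and 0.43 in LWMS and -1.11, -0.10 and 0.26 in MSLW, and here LW and MS overlapped.

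MS minus LW was -1.06 ± 0.27 at day 110 (adjusted p = 0.0052, limma), where KDR was the 1 gene called and 5.28% of all probes were. At day 90 it was -0.92 ± 0.28 (adjusted p = 0.032), short of the threshold of 0.01, and 0 of the 9 genes were called against 3.67% of all probes, although KDR and TEK had an unadjusted p under 0.05. Without LW fetus 484 the difference at day 90 was -1.14 (adjusted p = 0.0020) and was called. The call at day 110 was lost without any 1 of LW fetuses 557, 559, 850 and 852 or MS fetuses 401, 407 and 409, with differences of -0.86 to -1.04 and an adjusted p of 0.010 to 0.031. With median centring it was -0.94 and was not called.

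The breed of the sow and that of the sire were compared over all 4 genotypes. The sow contrast set MS and LWMS against LW and MSLW, and the sire contrast MS and MSLW against LW and LWMS. Both therefore include the difference between the purebreds. The crosses were not contrasted with each other directly. Their mean KDR levels were 0.17 in LWMS and 0.32 in MSLW at day 90, and -0.15 and -0.22 at day 110. With an MS sow KDR was 0.52 ± 0.14 lower (adjusted p = 0.0057, limma, threshold 0.05). Its plain mean was lower with an MS sow within each of the 8 slides, by 0.39 to 0.73. With median centring the fitted difference was -0.41 and was not called (adjusted p = 0.061). With an MS sire KDR was 0.47 ± 0.14 lower (adjusted p = 0.021), and the difference was negative on 6 of 8 slides, with a range from -1.45 to 0.74. The slide values for sow and sire were not adjusted for day, and days and groups were not balanced within slides, so they mix breed with age. KDR was the 1 gene of 9 called for the sow, where 15.9% of all probes were called, 7.07% higher and 8.84% lower with an MS sow. KDR and TEK were the 2 genes called for the sire, where 6.97% of all probes were called, 3.1% higher and 3.87% lower. The sow breed by age interaction called 0 of the 9 genes and 0.388% of all probes, with 1 of the 9 under an unadjusted p of 0.05, and the sire breed by age interaction called 0 of the 9 and 0% of all probes, with 0 of the 9.

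The breed difference of KDR was present in 1 of its 3 probes. A_72_P442740 had medians of -1.89 in LW and -1.94 in MS at day 90 and of -2.19 and -1.86 at day 110, and MS minus LW was 0.06 ± 0.28 and -0.04 ± 0.27 (adjusted p = 0.95 and 0.94, limma). O306, which was well above background on 43 of 63 arrays, gave -0.05 ± 0.36 and 0.01 ± 0.34 (adjusted p = 0.97 and 0.99). Within a fetus, A_72_P380298 exceeded A_72_P442740 by 2.89 in LW and 1.91 in MS on average at day 90, and by 2.73 and 1.72 at day 110. These differences of -0.98 and -1.02 between the breeds passed an exact two-sided permutation test over 6 against 9 and 7 against 9 fetuses (adjusted p = 0.00093 and 0.00092 over 7 probe comparisons). Against O306 the difference between breeds was -0.87 at day 90 (exact permutation, adjusted p = 0.0034) and -1.07 at day 110 (exact permutation, adjusted p = 0.092). Among fetuses of a group A_72_P380298 and A_72_P442740 rose and fell together, with r = 0.79 over 63 fetuses. With the mean over the 3 probes KDR was not called for genotype, for MS against LW, for the sow or for the sire. Why the probes differ by breed was not tested.

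**Figure D4:**
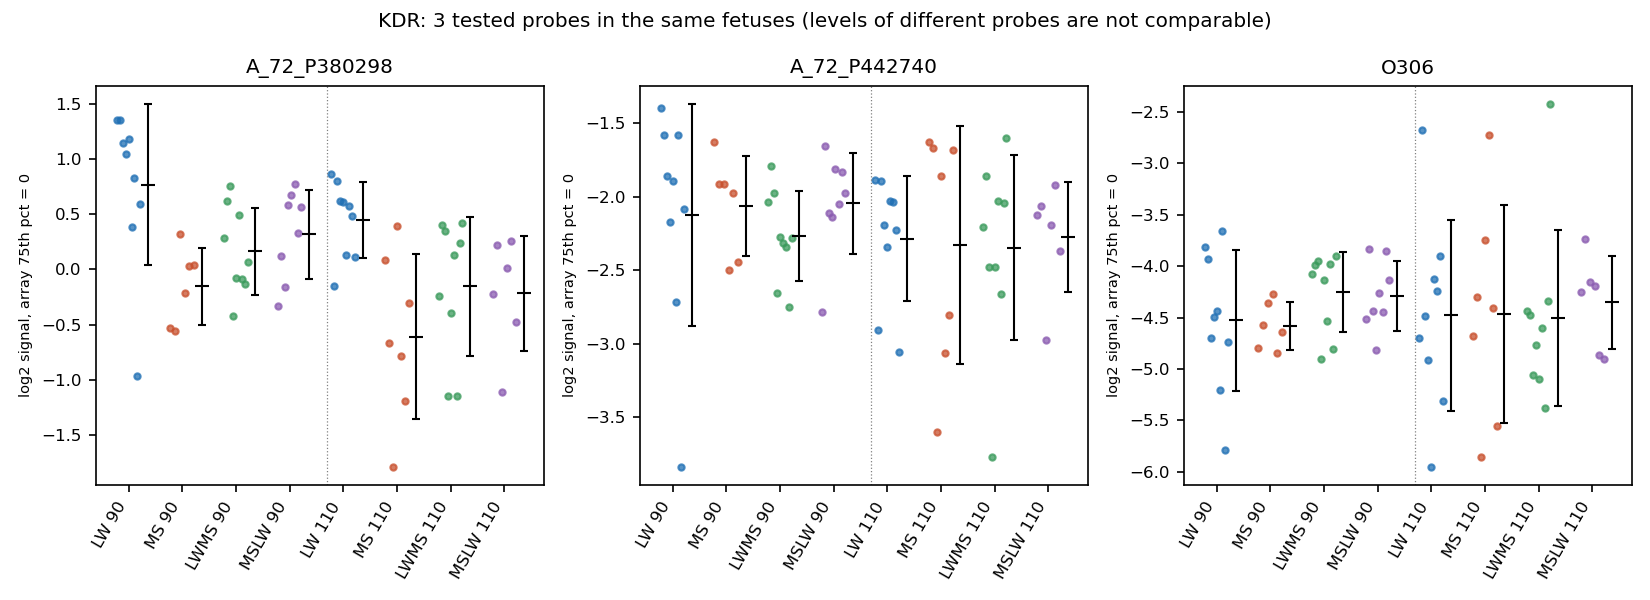
Level of the 3 tested KDR probes (log2 signal, 0 at the array's 75th percentile) in the same 63 fetuses, by genotype and day; dots are fetuses and bars are the group mean ± SD. In A_72_P380298 the mean of MS is below that of LW by 0.92 at day 90 and 1.06 at day 110, and in the other 2 probes the breeds differ by at most 0.06.

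TEK was lower with an MS sire by 0.28 ± 0.09 (adjusted p = 0.038, limma). At day 90 its lowest, median and highest levels were -1.38, -0.52 and -0.30 in LW, -1.47, -1.24 and -0.70 in MS, -1.30, -0.99 and -0.80 in LWMS and -1.86, -1.09 and -0.66 in MSLW. At day 110 they were -1.23, -0.64 and -0.09 in LW, -1.41, -0.98 and -0.13 in MS, -1.51, -0.73 and -0.31 in LWMS and -1.71, -1.26 and -0.85 in MSLW. All groups overlapped. The difference had this sign on 6 of 8 slides, and the call was lost in 15 of 63 fits that left out 1 fetus each, when the adjusted p was 0.050 to 0.069. The other TEK probes were not called for the sire, with differences of -0.15 to 0.11, and with the mean over all 4 TEK probes the difference was -0.11. The PECAM1 probe A_72_P077376, not the brightest of its gene, was lower with an MS sire by 0.27 ± 0.09 (adjusted p = 0.042), whereas the brightest PECAM1 probe differed by -0.10 ± 0.06 (adjusted p = 0.32).

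The remaining genes were not called in any comparison of breeds with the settings used throughout. ANGPT1 differed by -0.22 ± 0.08 with an MS sire (adjusted p = 0.081, limma), negative on 8 of 8 slides. It was called for the sire with the authors' log2 values (-0.23, adjusted p = 0.032), the slide as a fixed block (-0.26, adjusted p = 0.031), array weights (-0.28, adjusted p = 0.0049) and without LW fetuses 484 and 469 (-0.26, adjusted p = 0.020). With array weights CDH5 was called for genotype, for MS against LW at day 110 (-0.75, adjusted p = 0.0074) and for the sow (-0.36, adjusted p = 0.0054). MS minus LW for VEGFA was 0.32 ± 0.18 at day 90 and 0.19 ± 0.17 at day 110, for ANGPT1 -0.22 ± 0.17 and -0.28 ± 0.16, for ANGPT2 0.26 ± 0.20 and 0.31 ± 0.19, and for CDH5 -0.30 ± 0.27 and -0.44 ± 0.25. PECAM1 differed by -0.14 ± 0.12 and -0.01 ± 0.11, LYVE1 by -0.14 ± 0.24 and -0.11 ± 0.23, and FLT1 by -0.59 ± 0.35 and -0.18 ± 0.34. The list of endothelial identity and junction gave 0 of 17 genes called for the sow and 0 of 17 for the sire by limma, each gene by its brightest probe, and the 9 Notch, arterial and venous genes gave 0 and 0. Of 8 pericyte and mural genes 2 were higher with an MS sow, ABCC9 by 1.12 (adjusted p = 1.9e-07) and RGS5 by 0.26 (adjusted p = 0.023), and ABCC9 was also higher with an MS sire, by 0.61 (adjusted p = 0.0069). Of 10 genes of vascular matrix 2 were higher with an MS sow, SERPINF1 by 0.48 (adjusted p = 0.041) and COL18A1 by 0.30 (adjusted p = 0.0052), and COL18A1 was higher with an MS sire by 0.40 (adjusted p = 0.00031). Of 7 lymphatic genes PDPN was higher with an MS sow and with an MS sire, by 0.35 and 0.34 (adjusted p = 0.0038 and 0.0079). Of 12 hypoxia genes 1 was higher and 1 lower for the sow and 1 higher and 3 lower for the sire, and of 10 cell cycle genes 2 were lower for the sow and 0 were called for the sire. ABCC9 and RGS5 were named after their values were seen.

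The last comparison asked how the 9 genes vary together among fetuses of the same breed and day. Once the 8 group means were removed, 24 of the 36 pairs were related over the 63 fetuses (Pearson r, permutation of fetuses within groups, two-sided, Benjamini-Hochberg over 36 pairs, adjusted p under 0.05), 20 positively and 4 inversely. By Spearman's rho 21 pairs were, all of them among the 24. By their brightest probes the 7 genes other than VEGFA and LYVE1 formed 1 block. Of their 21 pairs 20 were related, and all 21 values of r were positive, from 0.28 to 0.82. With other probes, described with no test, the block was not complete. PECAM1 probe A_72_P218027 had r of -0.04 with KDR and -0.16 with TEK. With the other genes of the block, KDR probe O306 had r from -0.08 (ANGPT1) to 0.16 (CDH5). TEK probe O3657 had r from -0.01 (ANGPT1) to 0.31 (PECAM1). The remaining other probes of these genes had positive r with the other genes of the block, from 0.27 to 0.83. Fetuses of litters are not independent, and a shared sow was not removed. The share of related pairs among other genes of the array was not computed, so these counts cannot be called particular to vessel genes.

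KDR and CDH5 had the highest r, 0.82 (rho = 0.69, adjusted p = 4.5e-05 for r and 7.2e-05 for rho, permutation). The value without the 2 fetuses farthest from the median of KDR was 0.76. TEK and ANGPT1, the receptor and its ligand, had r = 0.72 (rho = 0.63, permutation, adjusted p = 4.5e-05 and 7.2e-05), and 0.67 without the 2 farthest fetuses. TEK and KDR had r = 0.66 (rho = 0.62), PECAM1 and CDH5 0.65 (rho = 0.52), and KDR and FLT1 0.63 (rho = 0.61). The 1 pair of the block that was not called was TEK and ANGPT2, with r = 0.28 (rho = 0.15, permutation, adjusted p = 0.085 and 0.33).

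VEGFA ran the other way. It was inversely related to TEK (r = -0.59, rho = -0.58, permutation, adjusted p = 8e-05 and 0.00012), ANGPT1 (r = -0.42, rho = -0.36, adjusted p = 0.0036 and 0.016) and KDR (r = -0.34, rho = -0.34, adjusted p = 0.015 and 0.016). Its r with FLT1 was -0.30 (adjusted p = 0.032), and rho was not called (-0.28, adjusted p = 0.064). The other VEGFA probes gave other values, described here with no test: the r of TEK was -0.05 with A_72_P441494 and 0.28 with A_72_P443769, and that of KDR was 0.03 and 0.45. The lowest r of A_72_P441494 was with ANGPT2, at -0.45. LYVE1 was related to none of the other 8 genes, with r from -0.26 to 0.17 and 0 of 8 pairs called by either r or rho.

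**Figure D5:**
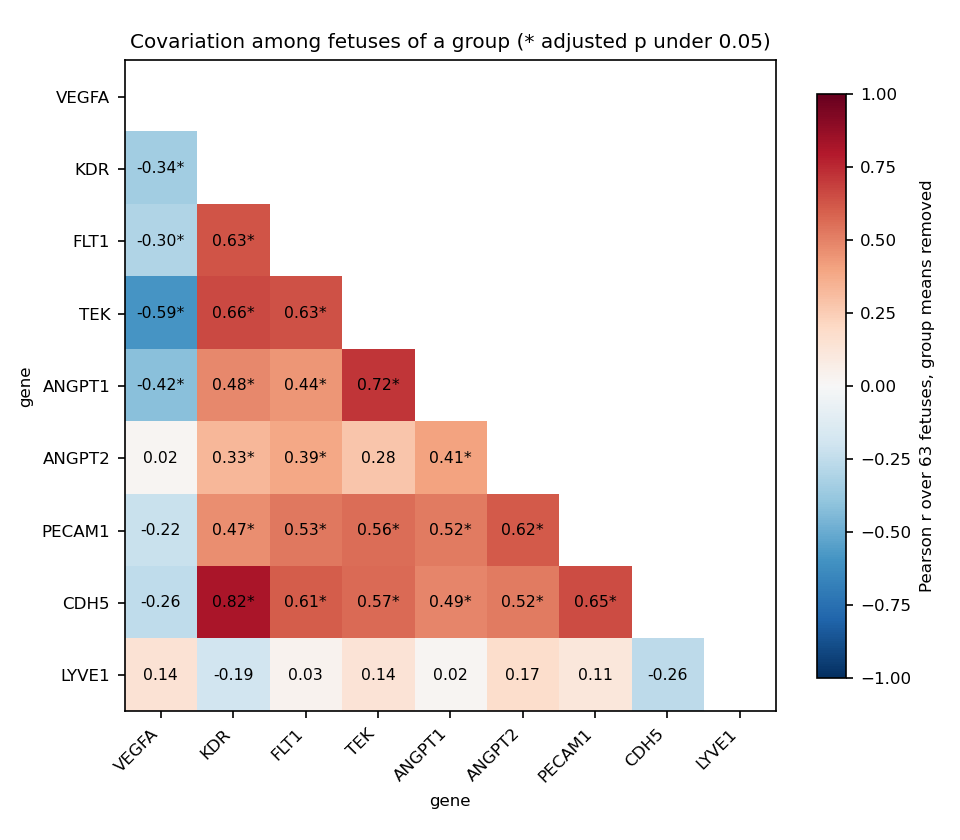
Pearson r between genes over 63 fetuses after the means of the 8 groups were removed (brightest probe of each gene), with an asterisk for an adjusted p under 0.05 over 36 pairs. KDR, FLT1, TEK, ANGPT1, ANGPT2, PECAM1 and CDH5 form a block of positive values from 0.28 to 0.82, VEGFA has 4 negative pairs with an asterisk, and LYVE1 has none.

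Removing slide means as well gave 26 related pairs, which held all 24. Removing the share of probes well above background on each array gave 23, all among the 24. The pair lost was the inverse one of VEGFA and FLT1 (r = -0.26, permutation, adjusted p = 0.058), and that share had r between -0.26 and 0.28 with the 9 genes over the 63 fetuses. Leaving out the 2 fetuses farthest from the median of the first gene of each pair also gave 23, among them all 4 inverse pairs of VEGFA (r from -0.55 to -0.28), and the pair lost was FLT1 and ANGPT2 (r = 0.39 with all fetuses and 0.22 without those 2).

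Outside the members, the genes whose pattern among fetuses of a group was most like each gene were, for KDR, ENG (r = 0.87 over 63 fetuses), PEAR1 (0.87) and PLVAP (0.84). For CDH5 they were SLC26A2, PDGFRB and NAV1 (0.94 each), for FLT1 ERG, ENG and NOS3 (0.76, 0.76 and 0.75), and for TEK C1S, CD36 and PLS3 (0.83, 0.83 and 0.82). PECAM1 was closest to SERPING1, CTSK and CHST14 (0.82, 0.81 and 0.81), and ANGPT2 to ADAMTS1, VCAM1 and SLC7A2 (0.74, 0.72 and 0.72). ANGPT1 was closest to SPAG5, TPX2 and KIFC1 (0.75, 0.74 and 0.74), VEGFA to ZNF326, RPL17 and GGNBP2 (0.80, 0.78 and 0.76), and LYVE1 to FABP5, C1QB and C1QA (0.68, 0.67 and 0.67). These are descriptions chosen as the highest of all named probes, with no test.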

How the data were processed

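The authors deposited the Agilent Feature Extraction output of 63 arrays (version 10.10.1.1 in the submitters' processing notes), which gives each spot's linear intensity both raw and with background subtracted, and a table of normalised log2 values that covers 39446 probes. Gene names are those of the array files. From the background-subtracted intensity, on the log2 scale, the 75th percentile of the same array was subtracted. Control spots were removed, spots flagged as outliers became missing, and replicate spots were averaged. Tests covered 40515 of 60305 probes, those that rose well above background in 75% or more of the fetuses of 1 group or more. Background subtraction makes differences of dim probes less certain, and the number of arrays limits precision. No spot was saturated (0 spots).

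The 8 group means were fitted to all tested probes with limma 3.58.1 in R 4.3.3, with two-sided p-values and Benjamini-Hochberg adjustment over those probes. Thresholds were 0.01 for age, genotype and MS against LW, and 0.05 for the breed of the sow or sire. Permutation p-values used 100000 draws, 20000 for the covariation without the 2 farthest fetuses, or all arrangements where called exact. Figures were drawn with Python 3.11.15 and matplotlib 3.10.9. Steps were tested on simulated data.

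A gene was represented by its brightest tested probe. All members are named. From each list at most 4 called genes with the largest age difference are named, and the other genes named are cell type markers, of which 1 result is not reported here. For likeness the 3 genes with the highest r are named. The members, lists and tests were chosen with earlier results of these data known. Which sow bore a fetus is not in the labels, so litter mates count as independent. All fetuses of a litter share the sow's breed and the day, so p-values for age and sow breed may be too small. Fetuses 484 (LW, day 90) and 469 (LW, day 110) were kept, and values without them were computed. Alternatives were the authors' log2 values, normexp (offset 50) in place of subtraction, quantile normalization, median centring, other filters on dim probes, outlier spots kept, the slide as a fixed or random block, array weights, the mean over probes of a gene, other call rules and leaving out fetuses. Leaving out 3 arrays of unusual brightness, the covariation without the share of bright probes and the comparison of 2 probes within a fetus were added after seeing the data.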

Additional observations from a re-analysis of the deposited data

Results flagged for a closer look

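Of 72 combinations of gene and group, 8 held a fetus whose gap to the nearest of the others was a large part of the range of the group, by Dixon's test, which chance passes in about 1 of 20. LW fetus 484 at day 90 was the lowest of its group for KDR (-0.97, next 0.38), CDH5 (-0.38, next 0.71) and ANGPT1 (-3.19, next -2.74). LW fetus 449 at day 90 was the lowest for VEGFA (-1.81, next -1.26). MSLW fetus 450 at day 90 was the lowest for ANGPT2 (-1.84, next -0.49), and MSLW fetus 476 at day 110 the lowest for CDH5 (-0.36, next 0.72). LWMS fetus 609 at day 110 was the highest for ANGPT1 (-1.58, next -2.29) and LWMS fetus 611 at day 110 the highest for LYVE1 (-1.56, next -2.30).

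All 3 member probes that were not tested gave signal more often than the 308 negative control spots, which were well above background in 1.97% of readings. The FLT4 probe O1280 was well above background on 3 arrays, 1 at day 90 and 2 at day 110. The LYVE1 probe O12508 was on 32 arrays, 17 at day 90 and 15 at day 110. The VEGFA probe O11835, which reads the strand opposite to the brightest VEGFA probe, was on 23 arrays, 11 at day 90 and 12 at day 110.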

How the results depend on the processing

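VEGFA kept its rise with age under every alternative run, at 0.36 to 0.66, and in all 63 fits that left out 1 fetus, at 0.60 to 0.65. The values that follow are numbers of genes called of 9, and the cause of a change was not tested. The number of all probes called for age moved with the setting too. It was 11543 of 40515 with the main settings, 15633 with array weights and 8437 with median centring. For the other comparisons the shares of all probes under the alternatives are not given here, so a changed count cannot be read as particular to these genes. Age averaged over genotypes (3) gave 5 with array weights, which added KDR (-0.51) and CDH5 (-0.43), 1 when a change of 0.5 or more on the log2 scale was also required, and 2 to 4 without 1 fetus. Age in LW (1) gave 2 with normexp, with array weights and at an adjusted p under 0.05, 0 with median centring and without the 3 arrays of unusual brightness, and 0 to 1 without 1 fetus. Age in MS (0) gave 2 with array weights, VEGFA (0.72) and LYVE1 (0.74). Age in LWMS (1) gave 0 with the mean over probes, and age in MSLW (0) gave 1, VEGFA, with the slide as a fixed block and at an adjusted p under 0.05. Genotype over both days (1) gave 0 with median centring and the mean over probes, 2 with normexp, with the slide as a fixed block, without LW fetuses 484 and 469 and at an adjusted p under 0.05, 4 with array weights, and 1 to 2 without 1 fetus. MS against LW at day 90 (0) gave 1 without fetuses 484 and 469 and at an adjusted p under 0.05, 2 with array weights, and 0 to 1 without 1 fetus. At day 110 (1) it gave 0 with median centring and the mean over probes, 2 with array weights, and 0 to 1 without 1 fetus. The breed of the sow (1) gave 0 with the mean over probes, 2 with array weights, which added CDH5 (-0.36), and 1 with median centring, which was VEGFA (0.28, adjusted p = 0.048) and not KDR (-0.41). The breed of the sire (2) gave 1 with median centring and without a filter, 0 with the mean over probes and with a difference of at least 0.5, and 1 to 3 without 1 fetus. It gave 3, with ANGPT1 added, for the authors' log2 values, the slide as a fixed block, array weights and without fetuses 484 and 469. LYVE1 was not called for age without a filter (adjusted p = 0.010) or without the 3 arrays of unusual brightness (0.34, adjusted p = 0.019). FLT1 ran from -0.039 to 0.094 for age without 1 fetus. Median centring moved the share of higher among all probes called for age from 44.9% to 53.9%, and no scaling moved the median age difference of all probes by over 0.1. The authors' log2 values, which track the array signals of the same probes (r of 0.993 or more), gave counts within 1.5 times in every comparison. No paired analysis was possible because the labels give no replicate number shared between groups. The slide was run as a block instead: as a random block it changed none of these numbers of genes, and as a fixed block those named above. Among tested probes O306 was well above background on 43 of 63 arrays, O3657 on 48 and O10586 on 50, and their differences are less certain.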
